A study of Mus musculus with 21 samples.

Results

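The genes described here encode the subunits of the proteasome, together with its assembly chaperones, activator caps and inhibitor, in Paneth cells sorted from the mouse small intestine. They were taken by symbol as protein-coding genes named Psma, Psmb, Psmc, Psmd, Psme, Psmf or Psmg with a number, leaving out Psmb8 and Psmb9. Of 49 genes found in this way among 55414 identifiers in the count table, 47 had at least 10 counts in at least 3 libraries. The germline-type Psma8 and the thymus-type Psmb11 did not. The 47 members were 7 genes of the core alpha ring, 8 of the core beta ring, 9 of the base and 8 of the lid of the regulatory particle, 3 base chaperones, 4 core chaperones, and 5 activators or inhibitors. The symbol rule also took 3 genes that name no subunit (Psmc3ip, Psme3ip1 and the retrocopy Psme2b), which are kept in the counts and described apart.

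RNA of Paneth cells from C57BL/6J mice was sequenced in 21 libraries that form 6 groups. The mice were conventionally colonised (specific pathogen-free, SPF), treated with antibiotics for 3 weeks, or germ-free, and drank Milli-Q water or water with 200 mM ZnSO4 for 7 weeks. There were 3 libraries each of SPF mice on Milli-Q water, SPF mice on zinc water and germ-free mice on Milli-Q water, and 4 libraries each of antibiotic-treated mice on Milli-Q water, antibiotic-treated mice on zinc water and germ-free mice on zinc water. The labels name no sex, age or litter, and none of the groups carries a genetic change. The comparisons ask how zinc in the drinking water and the state of the microbiome went with the transcripts of these cells. The samples are described as individual mice, without a pairing between groups. The p-values set a difference between groups against the spread between these samples.

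The proteasome degrades proteins that carry ubiquitin. Its core is a barrel of alpha rings, which gate the entry, and beta rings, which hold the catalytic sites. The regulatory particle consists of a base, whose Psmc ATPases unfold substrates, and a lid, whose Psmd14 subunit removes the ubiquitin chain. Dedicated chaperones assemble both parts, other caps such as the Psme1 and Psme2 complex, Psme3 and Psme4 can replace the regulatory particle, and Psmf1 inhibits the core. Psmb10 takes the place of Psmb7 in the immunoproteasome, the form that interferon signalling induces. Transcription factors Nfe2l1 and Nfe2l2, bound at antioxidant response elements, are known to drive many subunit genes. Paneth cells make and secrete large amounts of antimicrobial protein, so that protein quality control is a constant part of their work.

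Libraries held between 9888174 and 16896714 counts, of which 12481 to 49967 lay on the 47 members. The library labelled as SPF zinc replicate 1 held 501 CPM of Xist and 0 of Ddx3y, whereas in the other 20 libraries Xist did not exceed 2.55 CPM and Ddx3y was at least 9.75 CPM. Germ-free zinc replicate 4 lay apart from its group, at -15.8 on the first principal component against 33.1 to 79.4. Defa transcripts took 39.3 to 44.5% of counts in the germ-free libraries and 24.1 to 36.4% in the others, and the TMM scaling factors were 0.522 to 0.834 in the germ-free libraries and 0.996 to 1.49 in the others. Paneth cell markers were high in every group (summed level of the 7 markers, 277906 to 463013 CPM). Goblet markers summed to 9343 to 15566 CPM and stem or cycling markers to 1348 to 5684 CPM. Enterocyte markers summed to 162 to 1449 CPM. The 5 immune markers summed to 311 to 392 CPM in antibiotics Milli-Q and 9.89 to 232 CPM in antibiotics zinc libraries. In the other groups the immune sum was at most 132 CPM. Of this list, Cd74 reached 385 CPM, while Ptprc, a marker of leukocytes, reached at most 2.52 CPM. In bulk RNA, fewer cells of a type and less RNA per cell cannot be told apart.

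Promoters are shown for members on which the results below turn, with the motifs that each holds marked. No marked motif is in all of them, and Psmd1 holds none. The sequences are from RefSeq (GRCm38.p6) and run from 250 bases before to 50 bases after the transcription start, 5′ to 3′ on the strand of the gene. Capitals mark 3 motifs searched on both strands, the antioxidant response element core TGACNNNGC, the CCAAT box CCAAT and the ETS core CCGGAA. Psmd1, Psmd14, Psma3 and Psmd13 are among the subunits that rose most with zinc after antibiotics, and Psmb5 and Psmb6 carry catalytic sites. Psmd4 and Psmf1 stand for the members that were higher in germ-free mice on Milli-Q water with TMM factors. On library totals both were lower there.
Psmd1 (chr1:86064369-86064668, + strand): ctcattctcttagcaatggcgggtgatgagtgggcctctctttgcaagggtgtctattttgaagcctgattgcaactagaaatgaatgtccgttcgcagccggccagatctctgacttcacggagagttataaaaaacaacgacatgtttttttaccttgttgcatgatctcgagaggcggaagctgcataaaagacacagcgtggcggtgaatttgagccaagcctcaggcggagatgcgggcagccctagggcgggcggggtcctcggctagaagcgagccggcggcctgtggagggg
Psmd14 (chr2:61711444-61711743, + strand): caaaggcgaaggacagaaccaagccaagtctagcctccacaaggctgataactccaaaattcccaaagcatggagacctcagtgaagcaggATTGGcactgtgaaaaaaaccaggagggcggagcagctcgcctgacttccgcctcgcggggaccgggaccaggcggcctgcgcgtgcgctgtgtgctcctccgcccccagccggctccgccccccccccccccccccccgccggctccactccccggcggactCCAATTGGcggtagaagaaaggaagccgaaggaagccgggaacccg
Psma3 (chr12:70974373-70974672, + strand): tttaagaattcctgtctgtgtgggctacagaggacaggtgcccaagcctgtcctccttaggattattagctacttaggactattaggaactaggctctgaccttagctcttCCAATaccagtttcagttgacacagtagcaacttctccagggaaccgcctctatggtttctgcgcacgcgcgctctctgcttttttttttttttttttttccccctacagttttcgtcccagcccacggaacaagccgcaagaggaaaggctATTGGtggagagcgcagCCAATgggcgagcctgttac
Psmd13 (chr7:140882144-140882443, + strand): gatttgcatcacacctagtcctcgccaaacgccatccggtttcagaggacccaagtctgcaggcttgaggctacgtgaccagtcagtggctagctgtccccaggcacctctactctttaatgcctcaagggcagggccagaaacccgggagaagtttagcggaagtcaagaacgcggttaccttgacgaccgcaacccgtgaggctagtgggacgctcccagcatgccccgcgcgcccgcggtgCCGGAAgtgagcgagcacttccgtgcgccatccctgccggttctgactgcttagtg
Psmb5 (chr14:54617946-54618245, - strand): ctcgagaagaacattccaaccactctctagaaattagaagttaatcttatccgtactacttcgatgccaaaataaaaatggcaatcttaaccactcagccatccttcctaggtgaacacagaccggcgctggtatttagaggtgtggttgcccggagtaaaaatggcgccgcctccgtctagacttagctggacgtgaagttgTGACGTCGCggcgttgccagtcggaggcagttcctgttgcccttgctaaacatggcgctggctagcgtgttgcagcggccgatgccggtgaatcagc
Psmb6 (chr11:70525107-70525406, + strand): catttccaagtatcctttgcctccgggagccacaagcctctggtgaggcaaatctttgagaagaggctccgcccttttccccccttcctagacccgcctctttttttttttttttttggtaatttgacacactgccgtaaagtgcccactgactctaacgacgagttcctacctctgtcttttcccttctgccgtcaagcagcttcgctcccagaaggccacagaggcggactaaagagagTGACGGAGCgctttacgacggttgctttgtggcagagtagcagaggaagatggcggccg
Psmd4 (chr3:95042565-95042864, - strand): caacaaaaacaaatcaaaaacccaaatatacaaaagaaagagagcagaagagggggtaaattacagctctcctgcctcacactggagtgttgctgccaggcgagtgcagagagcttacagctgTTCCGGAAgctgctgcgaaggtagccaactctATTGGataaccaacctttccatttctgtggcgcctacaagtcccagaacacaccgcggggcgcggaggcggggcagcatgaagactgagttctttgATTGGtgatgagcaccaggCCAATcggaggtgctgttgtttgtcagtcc
Psmf1 (chr2:151741261-151741560, - strand): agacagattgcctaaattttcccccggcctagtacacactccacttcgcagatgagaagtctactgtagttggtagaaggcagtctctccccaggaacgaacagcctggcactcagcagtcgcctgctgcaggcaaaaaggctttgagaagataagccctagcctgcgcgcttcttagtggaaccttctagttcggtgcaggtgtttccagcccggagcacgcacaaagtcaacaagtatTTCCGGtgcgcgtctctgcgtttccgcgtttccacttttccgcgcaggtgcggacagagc

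Promoters of 40 of the 47 members were found, 44 in all since 4 genes had 2 starts. Psmb1, Psmb2, Psmb7, Psmc3, Psmd3 and Psmd7 had no entry. Psmg2 was left out because members on chromosome 18 were not searched, although the promoters of all genes below include that chromosome. The ETS core was in 23 of 44 member promoters (52.3%), compared with 14.9% of all 32851 promoters and 27.1% of the 12625 promoters of genes tested here. The CCAAT box was in 31.8% of member promoters, in 37.4% of all and in 38.1% of those of genes tested. The antioxidant response element core was in 6 member promoters, those of Psmb5, Psmb6, Psmc6, Psmd9, Psmd12 and Psme4 (13.6%), in 12.4% of all and in 14.5% of those of genes tested. Counted on both strands, Psmd14, Psma3 and Psmd4 had 3 matches to the CCAAT box each, of which 2 in Psmd14 overlap in 1 marked stretch. Psmd4 also had 2 matches to the ETS core, which overlap in 1 stretch. Psmd13 and Psmf1 had 1 ETS core each, and Psmd1 held none of the motifs in this window. These are letter matches in a fixed window and were not tested for binding or function.

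Levels differed widely between members in these Paneth cells. Per kilobase of the canonical transcript, averaged over all 21 libraries, the alpha ring subunit Psma7 had the highest level, 121 CPM per kilobase (SD over libraries 21.7). It was followed by Psmb6 (92.4), Psme2 (92.2), Psma6 (88.7) and Psmb4 (74.3 CPM per kilobase). Psmb6, Psme2 and Psma6 differed by less than their spread over libraries. The lowest subunit-related genes were the base chaperone Psmd5 (5.02 CPM per kilobase), the inhibitor Psmf1 (5.32) and the base chaperone Psmd9 (5.46), below the lowest genes of the core (Psma3, 12.8) and of the regulatory particle (Psmd1, 13.9 CPM per kilobase). The 3 base chaperones (with Psmd10 at 8.93) thus lay below every gene of the core and the regulatory particle, also when the longest transcript was used. Psmc3ip and Psme2b were lower still, at 2.30 and 2.23 CPM per kilobase.

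**Figure D1:**
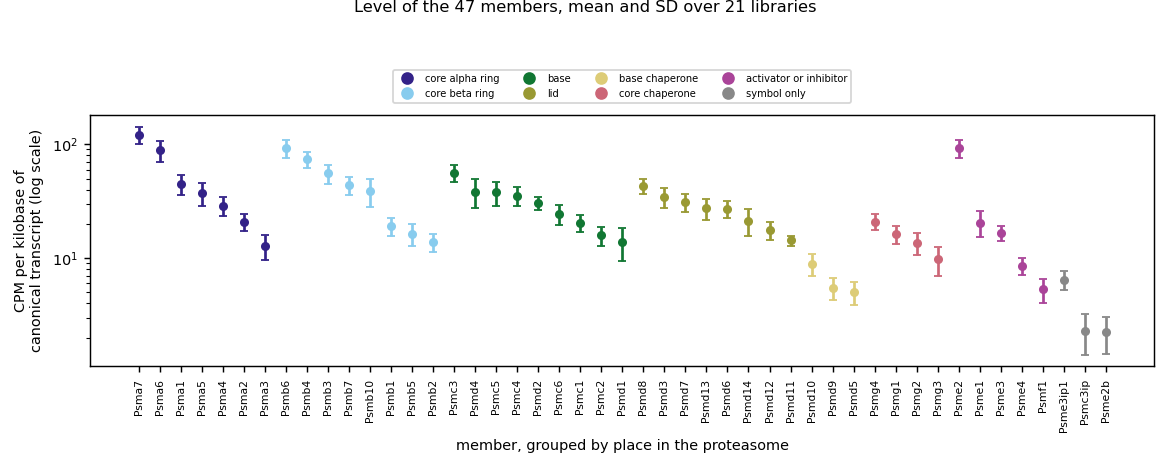
Level of each of the 47 members in CPM per kilobase of canonical transcript on a log axis, as mean and SD over the 21 libraries, ordered within each part of the proteasome. Psma7 is highest at 121 and Psme2b lowest at 2.23 CPM per kilobase.

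These levels depend on the transcript length used, since a canonical transcript with a long untranslated end lowers the value (Psmb1 is listed with 6002 bases). By the longest transcript of each gene Psma6 ranked 1 and Psma7 ranked 4. Some levels are uncertain for another reason. Only 44.3% of the 60-base words of Psme2, 49.4% of Psmb3, 55.2% of Psmb5, 57.6% of Psma5 and 35.1% of Psme2b occur in no other gene, so that the counting may have lost or moved reads. Exons of Psmd1 overlap Gm21972 on the same strand, those of Psmb5 overlap Mir686, those of Psmg3 Gm26938 and those of Psme2b 9930111J21Rik1. Exons of 22 of the 47 members, Psmd4, Psma3, Psmd13 and Psmf1 among them, overlap a gene on the opposite strand.

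With TMM factors, the mean summed level of the members was lowest in SPF mice and highest in antibiotic-treated mice on zinc water. The SPF libraries overlapped those of antibiotic-treated mice on Milli-Q water. In SPF mice on Milli-Q water the libraries had 2412, 2295 and 1984 CPM (TMM-scaled) over the 47 genes, and on zinc water 2180, 1953 and 2174 CPM. After antibiotics, the Milli-Q libraries had 2285, 2134, 2163 and 2431 CPM and the zinc libraries 3027, 2552, 2682 and 3153 CPM. Every zinc library after antibiotics thus lay above every Milli-Q library after antibiotics and above every SPF library with TMM factors. On library totals they overlapped, since antibiotics Milli-Q replicate 1 had 3399 and SPF Milli-Q replicate 2 had 3153 CPM against 3126 CPM in the lowest zinc library. Germ-free libraries had 2298, 2910 and 2810 CPM on Milli-Q water and 2417, 2326, 2508 and 2559 CPM on zinc water, and the 2 groups overlapped.

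Group means were 2230 ± 221 (SD, n = 3) and 2102 ± 129 (n = 3) CPM in SPF mice on Milli-Q and zinc water, 2253 ± 136 (n = 4) and 2854 ± 283 (n = 4) after antibiotics, and 2673 ± 329 (n = 3) and 2453 ± 103 (n = 4) in germ-free mice. The place of the germ-free groups in this order rests on the scaling. When counts were divided by library totals alone, their means were 1725 and 1748 CPM, the lowest of all 6 groups, whereas the zinc group after antibiotics remained highest at 3379 CPM. The proportion of core to regulatory particle varied little between the group means, although some groups were separate. The ratio of the core's summed level to that of the base and lid, which no scaling factor enters, averaged between 1.01 ± 0.0158 in germ-free mice on Milli-Q water and 1.11 ± 0.0620 in germ-free mice on zinc water. By library it was 0.991 to 1.02 in germ-free mice on Milli-Q water. On zinc water it was 1.06 to 1.19 in germ-free and 1.04 to 1.29 in antibiotic-treated mice, above all of these. The other groups overlapped the germ-free Milli-Q libraries, and the separation was not tested.

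**Figure D2:**
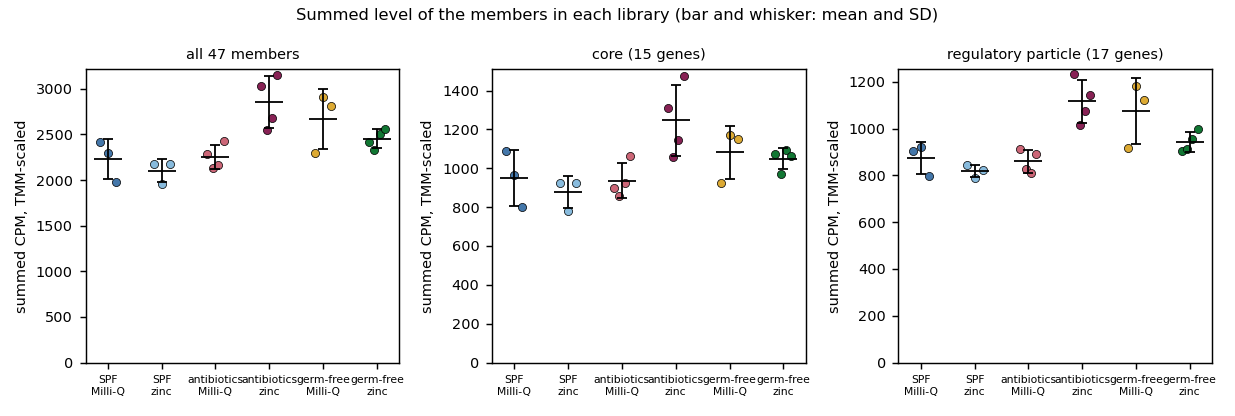
Summed TMM-scaled CPM of all 47 members, of the 15 core genes and of the 17 regulatory particle genes, with a point for each library and the mean and SD of each group. All 4 libraries of antibiotic-treated mice on zinc water (2552 to 3153 CPM for all members) lie above the 4 on Milli-Q water (2134 to 2431 CPM). On library totals alone these groups overlap (3126 CPM in the lowest zinc and 3399 CPM in the highest Milli-Q library), and the germ-free groups become the lowest.

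In SPF mice, zinc in the drinking water left no member past the threshold. By edgeR's quasi-likelihood test across 13070 genes, 0 of 47 members were called higher (0.0612% of all genes were) and 0 were called lower (0.0765%). DESeq2 and limma-voom also called 0, and 0 members had an unadjusted p under 0.05 in edgeR. The median log2 fold change of the members was -0.09 against -0.02 over all genes, with a range from -0.56 (Psme2b) to 0.28 (Psme4). Psmb5, which carries the chymotrypsin-like site, had 32.1, 31.2 and 23.7 CPM on Milli-Q water and 23.6, 18.1 and 24.4 CPM on zinc water. The groups overlapped, and the fold change was -0.39 (SE 0.20). Enterocyte markers had a summed level of 860 to 1449 CPM in the zinc libraries and 341 to 677 CPM in the Milli-Q libraries of these mice. Their part in the members' values was not tested.

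After antibiotics, zinc went with a rise of subunits of both core rings, the base and the lid. Of the 47 members, 27 were higher (10.2% of all genes tested were called higher) and 0 were lower (11.5%) by edgeR's quasi-likelihood test. The median log2 fold change was 0.36 over the members and 0.01 over all genes, and 40 of the 47 values were positive. All 7 alpha ring genes rose, with log2 fold changes between 0.40 (Psma7) and 0.69 (Psma3). So did 5 of 8 beta ring genes, 5 of 9 base genes, 6 of 8 lid genes, the base chaperone Psmd5, the activators Psme3 and Psme4, and Psmc3ip, a recombination cofactor that is no subunit. None of the 4 core chaperones passed the threshold, with log2 fold changes from 0.06 (Psmg4) to 0.34 (Psmg1).

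The largest rise was that of Psmd1, the scaffold of the base (chr1:85992097-86070048 in GRCm39). Its level was 39.2, 30.8, 41.2 and 47.2 CPM on Milli-Q water and 87.6, 58.5, 69.9 and 67.3 CPM on zinc water. The groups did not overlap, and the log2 fold change was 0.84 (SE 0.17, adjusted p = 0.00267 by edgeR's quasi-likelihood test). Psmd14, the deubiquitinase of the lid (chr2:61542026-61631607), had 44.8, 41.1, 42.7 and 49.97 CPM on Milli-Q water and 83.3, 58.4, 67.9 and 85.4 CPM on zinc water. Here, too, every zinc library was above every Milli-Q library, with a log2 fold change of 0.72 (SE 0.16, adjusted p = 0.00435, edgeR). Psma3 of the alpha ring (chr12:71021279-71043849) had 38.1, 31.7, 45.9 and 47.3 CPM on Milli-Q water and 58.2, 57.2, 67.4 and 80.6 CPM on zinc water. The libraries of the groups were again separate, and the log2 fold change was 0.69 (SE 0.13, adjusted p = 0.00193, edgeR).

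Psma6, another alpha ring gene, the base chaperone Psmd5 and the lid gene Psmd13 followed with log2 fold changes of 0.61, 0.58 and 0.55 (SE 0.15, 0.15 and 0.14), and in each of them the zinc libraries lay above all Milli-Q libraries. Of the constitutive catalytic subunits, Psmb7 (trypsin-like site) had 43.5, 38.9, 43.8 and 51.7 CPM on Milli-Q water and 67.7, 56.6, 55.3 and 70.5 CPM on zinc water. It rose by 0.49 on the log2 scale (SE 0.13, adjusted p = 0.00999, edgeR), without overlap. Psmb5 had 21.5, 18.8, 22.2 and 30.1 CPM on Milli-Q water and 40.0, 25.3, 29.1 and 37.6 CPM on zinc water. These libraries overlapped in part, with a log2 fold change of 0.51 (SE 0.17, adjusted p = 0.0398, edgeR). Psmb6 (caspase-like site) had 78.7, 82.3, 85.7 and 98.4 CPM on Milli-Q water and 122, 93.7, 101 and 136 CPM on zinc water, with overlap. It rose by 0.39 (SE 0.14) and was at the very edge of the threshold (adjusted p = 0.04997, edgeR).

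The inducible subunit Psmb10 did not move with them. It had 57.0, 59.8, 48.3 and 61.7 CPM on Milli-Q water and 50.8, 36.5, 40.5 and 50.4 CPM on zinc water after antibiotics, with a log2 fold change of -0.35 (SE 0.16, adjusted p = 0.117, edgeR). The counts of Psmb10 divided by those of Psmb7, its constitutive counterpart, were 1.10 to 1.54 on Milli-Q water and 0.644 to 0.750 on zinc water, and did not overlap. This ratio was chosen after the values had been seen and was not tested. In SPF mice it was 0.809 to 1.05 on Milli-Q water and 0.867 to 0.995 on zinc water, so that the groups overlapped. In germ-free mice it was 1.14 to 2.12 on Milli-Q and 0.636 to 1.25 on zinc water, with overlap and means of 1.48 and 0.885. Psme1, a subunit of the interferon-inducible cap, had 99.5, 101, 88.5 and 104 CPM on Milli-Q water and 83.0, 70.6, 66.6 and 94.8 CPM on zinc water after antibiotics (log2 fold change -0.32, SE 0.18, not past the threshold). The immune marker list (5 genes) moved in the same direction, with 311 to 392 CPM in the Milli-Q and 9.89 to 232 CPM in the zinc libraries after antibiotics. Nearly all of this was Cd74, which reached 385 CPM. Its part in the values of Psmb10 and Psme1 was not tested.

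Among the other caps, Psme4 had 45.5, 46.6, 47.4 and 44.4 CPM on Milli-Q water and 58.8, 71.9, 67.1 and 60.5 CPM on zinc water after antibiotics. The groups were separate, and the gene rose by 0.49 on the log2 scale (SE 0.13, adjusted p = 0.0123, edgeR). Psme3 rose by 0.34 (SE 0.12, adjusted p = 0.0471, edgeR), whereas Psme2 and Psmf1 had log2 fold changes of -0.10 and -0.12 (SE 0.16 and 0.13) and did not pass. The ubiquitin receptor Psmd4 had 50.6, 53.0, 43.5 and 43.7 CPM on Milli-Q water and 51.8, 44.5, 45.6 and 48.4 CPM on zinc water, a log2 fold change of 0.00 (SE 0.15).

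The number of members called after antibiotics depended on single libraries and on the scaling. The 1 member called lower under any setting was Psmb10 (-0.36, adjusted p = 0.0477, edgeR), in a fit of the antibiotic groups only. The number called was between 12, without antibiotics Milli-Q replicate 2, and 29 when 1 library was left out. It was 15 without Milli-Q replicate 3, 14 without zinc replicate 1 and 16 without zinc replicate 4. On library totals alone it was 3, all higher, where 1.15% of all genes were higher and 9.91% lower. With the share of 18S ribosomal RNA as a term it was 3 as well. Shares of all genes with that term and without 1 library are not given here. Counts on Rn18s-rs5, which carries 18S ribosomal RNA, were 1.63 to 2.03% of the total in the Milli-Q and 1.96 to 6.09% in the zinc libraries after antibiotics. The call of Psmd1 and that of Psma3 held under each of these settings. That of Psmd14 was lost with the 18S term, and those of Psma6, Psmd5 and Psmd13 were lost both with it and on library totals.

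**Figure D3:**
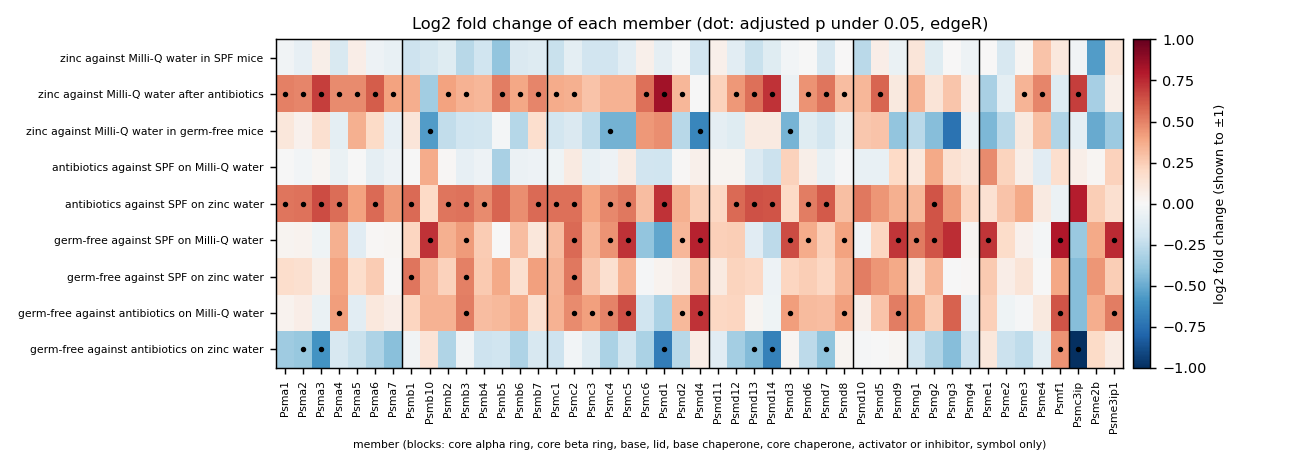
Log2 fold change of the 47 members (columns, in blocks by part of the proteasome) in the 9 comparisons of a pair of groups (rows), with a dot where edgeR's adjusted p was under 0.05. The row of zinc after antibiotics holds 27 dots, all higher, and the row of zinc in SPF mice holds 0. The higher values of the germ-free rows against SPF or antibiotics on Milli-Q water turn to lower ones on library totals alone.

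In germ-free mice, zinc did not go with a rise of the members. By edgeR's quasi-likelihood test 0 of 47 members were higher (5.89% of all genes were) and 4 were lower (5.47%), and the median log2 fold change was -0.12 over the members and -0.02 over all genes. Psmd4, which binds ubiquitin chains at the base (chr3:94937765-94949925), had 64.1, 98.0 and 73.6 CPM on Milli-Q water and 35.8, 51.2, 43.4 and 68.5 CPM on zinc water. The zinc library that stood apart, replicate 4, was the highest of its group and overlapped the Milli-Q libraries. The fold change of Psmd4 was -0.65 on the log2 scale (SE 0.16, adjusted p = 0.0179, edgeR). Psmb10 had 54.3, 94.9 and 67.6 CPM on Milli-Q water and 40.9, 40.0, 49.9 and 64.3 CPM on zinc water, with a log2 fold change of -0.56 (SE 0.17, adjusted p = 0.0415, edgeR). The ATPase Psmc4 and the lid gene Psmd3 fell by 0.47 and 0.46 on the log2 scale (SE 0.14 and 0.15).

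The falls in germ-free mice were fragile. No member (0) was called once replicate 2 on Milli-Q water, or replicate 1 or 3 on zinc water, was left out. Without zinc replicate 4, 12 were called, 3 higher and 9 lower. None was called on library totals alone, in a fit of the germ-free groups only, or after correction for GC content and transcript length. Leaving out Milli-Q replicate 1 gave 7 lower members, and leaving out Milli-Q replicate 3 or zinc replicate 2 gave 1.

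Zinc effects were also compared between the contexts directly. Between antibiotic-treated and SPF mice, 0 members were called (0% of all genes in either direction) by edgeR, although 27 had an unadjusted p under 0.05 and the median of the difference over the members was 0.48 on the log2 scale. DESeq2 called 3 members and limma-voom 6, all with a larger zinc effect after antibiotics. Between germ-free and SPF mice, 0 members were called (0% of all genes in either direction), and 1 had an unadjusted p under 0.05, while DESeq2 and limma-voom called 0. Between germ-free and antibiotic-treated mice, 0 members were called by edgeR, where 0.0689% of all genes were called higher and 0.138% lower. Here 27 members had an unadjusted p under 0.05, and all 47 differences were negative, with a median of -0.48 against 0.01 over all genes. In this comparison DESeq2 called 5 members and limma-voom 15, each of them lower in germ-free mice. For the counts by unadjusted p, by DESeq2 and by limma-voom, the shares of all genes are not given here. Whether these counts exceed those shares is thus not shown. Each pair of these differences of zinc effects shares the groups of 1 context, which is SPF, antibiotic-treated or germ-free. A larger effect of zinc after antibiotics than in the other contexts is therefore not established gene by gene in edgeR.

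Antibiotics by themselves, compared with SPF on Milli-Q water, left 0 members called higher (0.0459% of all genes) and 0 lower (0.153%). DESeq2 and limma-voom called 0 as well. In edgeR 3 members had an unadjusted p under 0.05, for which no share over all genes is given here. The median log2 fold change was 0.00. Psme1 had 75.4, 69.2 and 68.0 CPM in SPF mice and 99.5, 101, 88.5 and 104 CPM after antibiotics, and Psmb10 had 44.0, 45.0 and 42.4 CPM against 57.0, 59.8, 48.3 and 61.7 CPM. Both genes were without overlap between the groups but did not pass the threshold, with log2 fold changes of 0.47 (SE 0.20) and 0.37 (SE 0.17). On zinc water, 21 members were higher after antibiotics than in SPF mice (4.76% of all genes) and 0 were lower (4.21%), and the median log2 fold change was 0.47. Of the enterocyte markers, 5 of 7 were lower (median -2.94), and 4 of 7 goblet markers were higher (median 1.26), and their part was not tested. This comparison shares its antibiotic zinc libraries with the comparison of zinc after antibiotics. Leaving out an SPF library gave 13 calls for replicate 1, the library with high Xist, 2 for replicate 2 and 5 for replicate 3. Removal of replicate 1 or replicate 4 of the antibiotic libraries gave 10. The lid gene Psmd7 was called in every one of these fits, with a log2 fold change of 0.62 (SE 0.13).

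Germ-free mice were also compared with SPF mice on Milli-Q water. By edgeR's quasi-likelihood test 16 members were higher (12.7% of all genes were) and 0 were lower (11.6%), whereas on library totals alone 0 were higher and 35 lower (70.9% of all genes were lower on that scaling). The median of all genes then shifted to -0.99 on the log2 scale, and that of the members to -0.70. With TMM factors the medians were -0.03 and 0.25. The gap between these medians does not depend on the scaling, which shifts all genes alike. Markers of other cell types moved in the same comparison. All 7 Paneth markers were higher with TMM factors, 4 of 5 enteroendocrine, 2 of 3 tuft and 2 of 5 stem or cycling markers were lower, and the summed level of the latter was 1348 to 1956 CPM in germ-free and 3951 to 5684 CPM in SPF mice. Their part in the members' values was not tested. The base gave 5 of the 16 calls (Psmc2, Psmc4, Psmc5, Psmd2 and Psmd4), and the alpha ring gave 0 of 7, with a median of 0.02.

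Psmf1, the inhibitor of the core (chr2:151557732-151586119), had 14.4, 17.97 and 17.6 CPM in SPF mice and 24.0, 33.8 and 29.3 CPM in germ-free mice on Milli-Q water. The groups did not overlap, and the log2 fold change was 0.80 (SE 0.15, adjusted p = 0.000720, edgeR), but -0.17 on library totals. On zinc water it had 18.2, 19.3 and 16.4 CPM in SPF mice and 24.2, 23.3, 22.7 and 23.9 CPM in germ-free mice, again apart, with a log2 fold change of 0.39 (SE 0.14) that did not pass. As a share of the members' own counts, which no scaling enters, Psmf1 was 1.04 to 1.16% and 0.903 to 1.00% in the germ-free groups on Milli-Q and zinc water. In SPF mice the shares were 0.596 to 0.885% and 0.753 to 0.990%, and after antibiotics 0.721 to 1.05% and 0.489 to 0.750%. The 3 germ-free Milli-Q libraries thus lay above all SPF libraries, while 2 of them lay just below 1 antibiotic library on Milli-Q water (1.04 against 1.05%).

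Psmd4 had 45.2, 49.5 and 43.1 CPM in SPF mice against 64.1, 98.0 and 73.6 CPM in germ-free mice on Milli-Q water, a separation with a log2 fold change of 0.77 (SE 0.17, adjusted p = 0.00288, edgeR) that was -0.20 on library totals. Its share of the members' counts was 1.88 to 2.17% and 2.62 to 3.37%. Psmd1 took the opposite course within the members, with 1.81 to 2.35% of their counts in SPF mice and 0.953 to 1.33% in germ-free mice. The ATPase Psmc5, the base chaperone Psmd9, Psmb10 and Psme3ip1, a nuclear partner of Psme3, were higher by 0.72, 0.71, 0.72 and 0.74 on the log2 scale with TMM factors, and all 4 turned negative on library totals, between -0.25 and -0.22. Psme1 was higher by 0.71 (SE 0.21, adjusted p = 0.0175, edgeR), and was -0.25 on library totals. Leaving out replicate 2 of the germ-free libraries gave 7 calls and leaving out replicate 2 of the SPF libraries gave 8. There were 10 calls after removal of replicate 3, both for the SPF (8 higher, 2 lower) and for the germ-free libraries (9 higher, 1 lower).

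On zinc water, germ-free mice had 3 members higher than SPF mice (3.47% of all genes) and 0 lower (2.38%), namely Psmb1, Psmc2 and Psmb3, with log2 fold changes of 0.53, 0.52 and 0.51. None of the 3 was called when replicate 2 or replicate 3 of the SPF libraries was left out, and all 3 were negative on library totals. Against antibiotic-treated mice on Milli-Q water, 13 members were higher in germ-free mice (12.5% of all genes) and 0 were lower (9.7%), but 0 were higher and 42 lower on library totals, where 78.6% of all genes were lower. Psmd4, Psmc5 and Psmf1 led with log2 fold changes of 0.72, 0.64 and 0.63 (SE 0.16, 0.15 and 0.14), which were -0.33, -0.40 and -0.40 on library totals. This comparison shares its germ-free libraries with the one against SPF mice. The count was 3 or 6 when replicate 2 or 3 of the germ-free libraries was left out, and 6 or 8 when replicate 3 or 4 of the antibiotic libraries was.

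Between germ-free and antibiotic-treated mice on zinc water, 1 member was higher in germ-free mice (7.07% of all genes), Psmf1 with a log2 fold change of 0.45 (SE 0.13), which was -0.30 on library totals. There were 7 lower members (6.09% of all genes), which were Psmd1, Psmd14, Psma3, Psmd13, Psmd7, Psma2 and Psmc3ip. Psmd1 had 87.6, 58.5, 69.9 and 67.3 CPM after antibiotics and 46.9, 47.6, 48.5 and 32.8 CPM in germ-free mice, a fall of 0.69 on the log2 scale (SE 0.17, adjusted p = 0.00984, edgeR). Psmd14 fell by 0.68 (SE 0.16, adjusted p = 0.00766, edgeR) and Psma3 fell by 0.60 (SE 0.13, adjusted p = 0.00414, edgeR), both without overlap. These members were lower on library totals as well, where 45 members and 65.3% of all genes were. The count of 8 members came to 4 after removal of germ-free replicate 2, and to 5 after removal of antibiotic replicate 1 or 4.

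**Figure D4:**
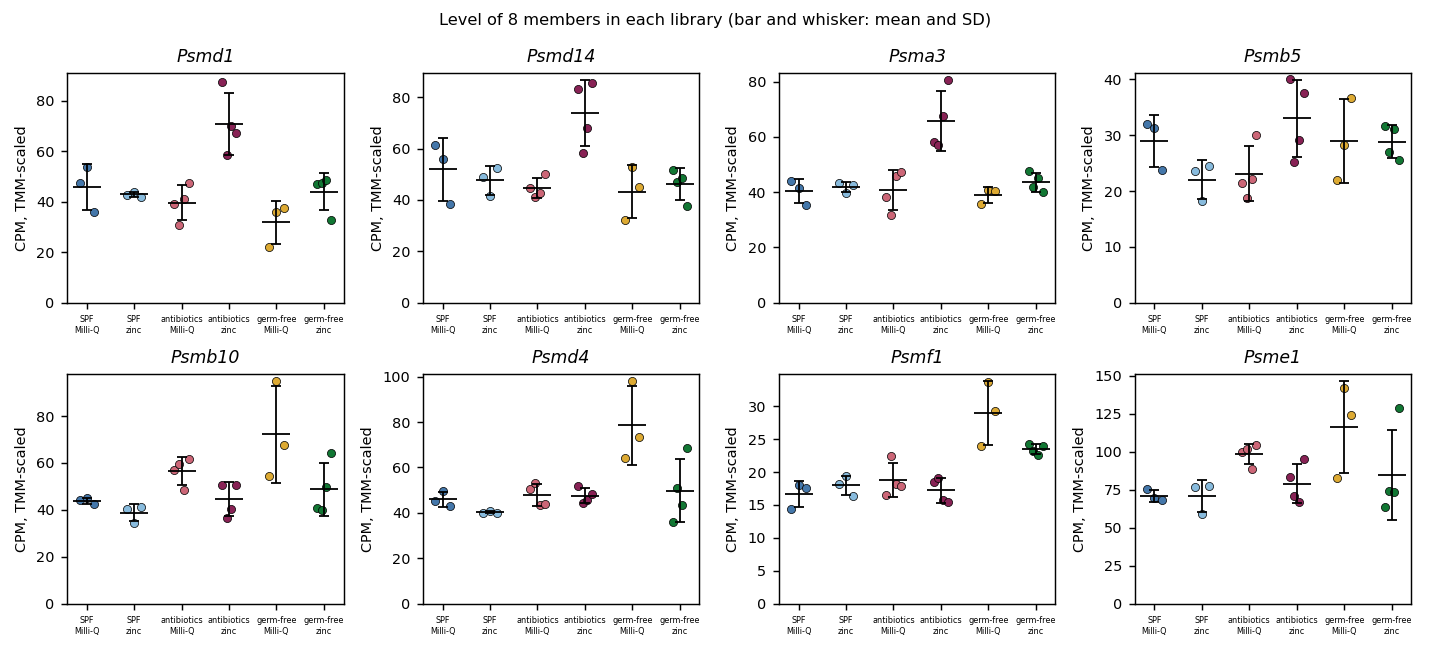
TMM-scaled CPM of 8 members in every library, with the mean and SD of each group. Psmd1 and Psma3 are highest in the 4 libraries of antibiotic-treated mice on zinc water (Psmd1, 58.5 to 87.6 CPM), Psmd14 has its highest mean there although 1 SPF Milli-Q library (61.5 CPM) reaches into that range, and Psmd4, Psmf1 and Psmb10 reach their highest mean level in germ-free mice on Milli-Q water (Psmd4, 64.1 to 98.0 CPM), which turns on library totals.

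Levels of the constitutive catalytic subunits and of the caps were also set side by side over the 6 groups. Psmb6 averaged 90.002 ± 13.2 and 81.6 ± 6.57 CPM (SD, n = 3 each) in SPF mice on Milli-Q and zinc water and 111 ± 23.3 (n = 3) and 91.2 ± 9.59 (n = 4) in germ-free mice, against 113 ± 19.3 CPM (n = 4) in antibiotic-treated mice on zinc water. Psmb7 was highest in that group as well, at 62.5 ± 7.68 CPM (n = 4), followed by germ-free mice on zinc water at 56.0 ± 6.37 CPM (n = 4), which is within the spread. Psme4 had group means of 64.6, 60.7 and 60.6 CPM on zinc water after antibiotics, in SPF mice and in germ-free mice, and of 46.0, 49.8 and 49.1 CPM on Milli-Q water. Its zinc mean was thus the higher one in each context, although the groups overlapped in SPF and germ-free mice and the gene passed the threshold after antibiotics only, a difference between contexts that did not pass in edgeR. Psme2 overlapped between the groups in all 9 comparisons, with means from 76.4 to 99.8 CPM.

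Members with a different base composition did not move alike. The median GC content of the canonical transcripts of the members was 49.96%. In zinc-treated against Milli-Q germ-free mice, the 23 members below it had a median log2 fold change of 0.09 and the 24 others of -0.27, and over all genes the medians on either side of the same GC content were 0.17 and -0.19. In germ-free against SPF mice on Milli-Q water the medians of the members were 0.21 and 0.37, and those of all genes -0.22 and 0.16. After a correction for GC content and length, which was chosen after the data had been seen, the medians of the members in germ-free mice with zinc were -0.09 and -0.08. In germ-free against SPF mice on Milli-Q water the corrected medians were 0.34 and 0.17, so that their order turned. The contrast of zinc after antibiotics kept medians of 0.35 and 0.43 after correction (0.45 and 0.33 before), and 27 members were called, of which 22 were among the 27 called without it. Psmd1, Psmd13 and Psmb5 rose by 0.80, 0.70 and 0.69 in the corrected fit.

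**Figure D5:**
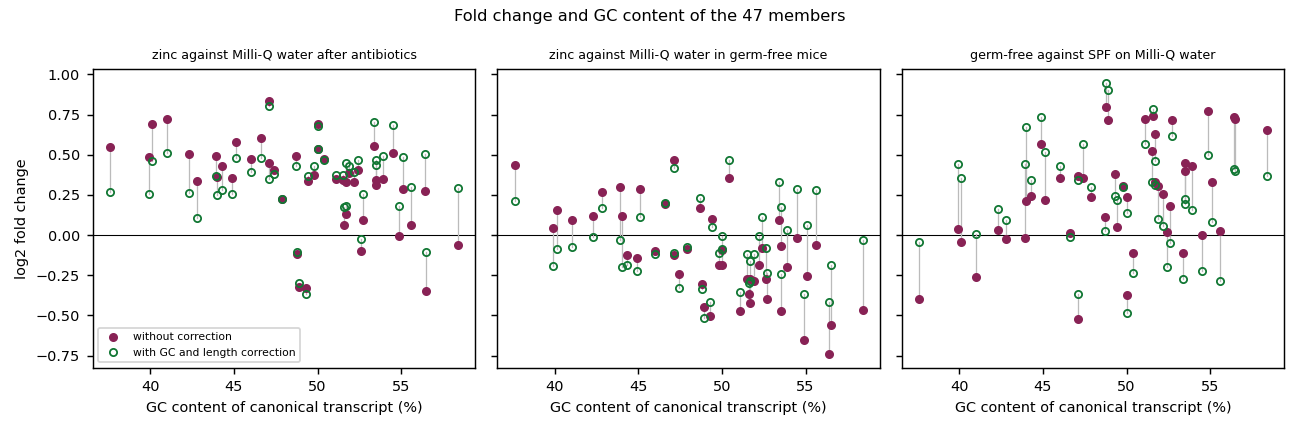
Log2 fold change of the 47 members against the GC content of their canonical transcript in 3 comparisons, without (filled) and with (open) a correction for GC content and length, joined by a line for each gene. After antibiotics most members stay above 0 under both (medians 0.35 and 0.43 after correction), and in germ-free mice with zinc the medians come to -0.09 and -0.08. In germ-free against SPF mice on Milli-Q water they come to 0.34 and 0.17.

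Other genes of the pathway were taken from a list of 36, of which 35 were tested. With zinc after antibiotics, 10 were higher and 2 lower with TMM factors (10.2% and 11.5% of all genes were), and on library totals 1 was higher and 2 lower (1.15% and 9.91%). Among the higher ones were Pomp, the chaperone that matures the core (0.35), the deubiquitinases Usp14 (0.33) and Uchl5 (0.58), the proteasome-bound ubiquitin ligase Ube3c (0.50), the thioredoxin-like partner Txnl1 (0.57), the shuttle Rad23b (0.53), and the ubiquitin-activating enzymes Uba1 (0.37) and Uba6 (0.96). Mafg, the small Maf partner of Nfe2l1 and Nfe2l2, fell by 1.03 and the ubiquitin ligase Syvn1 fell by 0.51 on the log2 scale. Neither Nfe2l1 nor Nfe2l2 was called in any of the 12 comparisons. With zinc in SPF mice, 0 of the 35 were called. In germ-free mice with zinc, 3 were higher and 4 lower, against 5.89% and 5.47% of all genes, and 2 and 0 on library totals, the lower ones including the ubiquitin receptor Adrm1 (-0.63). The ATPase Vcp, which extracts proteins for the proteasome, had a log2 fold change of 0.80 between germ-free and SPF mice on Milli-Q water with TMM factors and was -0.18 on library totals. There, 9 of the 35 were higher and 4 lower with TMM factors (12.7% and 11.6% of all genes were), and 0 and 28 on library totals, where 70.9% of all genes were lower. Uchl5 was the 1 gene of the list whose zinc effect differed between germ-free and antibiotic-treated mice (difference -0.98, SE 0.20, adjusted p = 0.0336, edgeR).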

How the data were processed

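RNA of FACS-sorted Paneth cells was made into TruSeq stranded mRNA libraries. The authors deposited raw counts per gene for all 21 libraries, with no normalisation. The submitters' processing notes name FastQC 0.12.0, STAR 2.7.0a, DESeq2 and the mm39 build. The counter, its strand setting and its treatment of reads with several matches are not given in the sources used here. All count columns were mapped to samples by name (0 were not). The members and lists were chosen with earlier results of these data known.

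Genes kept by edgeR's filterByExpr (minimum count 10, with the 6 groups given) were tested, 13070 in all. The rule of at least 10 counts in at least 3 libraries was the one for the members. Counts were scaled with TMM factors and fitted in R 4.3.3 with edgeR 4.0.16 (quasi-likelihood test, 6 groups in 1 fit, Benjamini-Hochberg adjustment over all genes, threshold 0.05). CPM per kilobase used the canonical transcript of GENCODE M39 (GRCm39), in place of the planned longest transcript. Groups come from the labels, and replicates are separate samples. For each comparison with calls, the 6 largest rises and falls among called members with a mean of at least 5 CPM were followed through all alternatives. Catalytic subunits, caps, Psmf1, Psmd4 and Psmd14 were described whatever their values, and other genes named were chosen after their values were seen. Other settings tried were scaling by library totals, by size factors of the DESeq2 type or by TMM factors without Defa genes, the tests of DESeq2 1.42.0, limma-voom 3.58.1 with quality weights, other count filters, only the groups compared, a replicate block and each library left out. A correction for GC content and length, and a term for 18S ribosomal RNA, were chosen after seeing the data. The scripts were tested on simulated data. With 9888174 to 16896714 counts per library, intervals from counting are narrow beside the spread between libraries. Values of some listed genes are not reported here.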

Additional observations from a re-analysis of the deposited data

Results flagged for a closer look

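In each group of 4 libraries, the named members and the summed levels were searched for a single library far from the others (Dixon's test at 95%). Of 111 such groups 6 were found, and chance gives about 1 in 20. Germ-free zinc replicate 4 had 32.8 CPM of Psmd1 against 46.9 to 48.5 CPM in the other libraries of its group, and 129 CPM of Psme1 against 63.5 to 74.1 CPM. Antibiotics zinc replicate 4 had 62.2 CPM of Psmd3 against 74.6 to 75.3 CPM, and a summed core chaperone level of 71.6 CPM against 59.7 to 61.6 CPM. Antibiotics Milli-Q replicate 1 had 85.6 CPM of Psme3 against 62.5 to 66.1 CPM. Antibiotics Milli-Q replicate 4 had a summed beta ring level of 547 CPM against 455 to 464 CPM.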

How the results depend on the processing

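Among the counts of members called in the 12 comparisons, 103 of 132 values under another setting and 73 of 105 without 1 library stayed within 1.5 times the value reported. Counts of 0 that stayed 0 are included in these shares. For zinc after antibiotics, 4 of 8 fits without 1 library moved further. So did 7 of 7 for zinc in germ-free mice and 5 of 7 for antibiotics against SPF on zinc water. For germ-free against SPF it was 4 of 6 on Milli-Q and 2 of 7 on zinc water, and against antibiotics 4 of 7 and 3 of 8. The cause of the other changes was not tested. On library totals alone, 3 members were called for zinc after antibiotics, all higher, and 0 for zinc in germ-free mice. For zinc after antibiotics 1.15% of all genes were then higher and 9.91% lower. Against SPF mice, germ-free mice then had 35 members on Milli-Q and 16 on zinc water, and against antibiotics 42 and 45, all lower. Of all genes, 70.9% and 48% were lower against SPF, and 78.6% and 65.3% against antibiotics. Means of the summed level moved to 2794 and 2282 CPM in SPF mice on Milli-Q and zinc water, 2995 and 3379 after antibiotics, and 1725 and 1748 in germ-free mice. On totals minus the Defa genes they were 3962, 3516, 4221, 4661, 3067 and 2970 CPM in the same order. Log2 fold changes that turned negative on library totals were, for germ-free against SPF on Milli-Q water, Psmf1 -0.17, Psmd4 -0.20, Psme3ip1 -0.22, Psmb10 -0.25, Psmc5 -0.24 and Psmd9 -0.24, and on zinc water Psmb1 -0.081, Psmc2 -0.10 and Psmb3 -0.075. Against antibiotics on Milli-Q water they were Psmd4 -0.33, Psmc5 -0.40, Psmf1 -0.40, Psmd9 -0.52, Psmb3 -0.53 and Psme3ip1 -0.53, and on zinc water Psmf1 -0.30. With the 18S term, 3 members were called for zinc after antibiotics, 10 and 0 for germ-free against SPF on Milli-Q and zinc water, and 3 for germ-free against antibiotics on Milli-Q water. With only the groups compared, zinc in germ-free mice gave 0, germ-free against SPF 10 and 0, germ-free against antibiotics on zinc water 4, and the difference of zinc effects between antibiotics and SPF 2. For zinc in germ-free mice DESeq2 called 7 members, limma-voom 11 and the GC and length correction 0. For germ-free against SPF on zinc water limma-voom called 9 and the GC and length correction 6, and for germ-free against antibiotics on Milli-Q water limma-voom called 23 and no count filter left 4. For the difference of zinc effects between antibiotics and SPF, DESeq2 called 3, limma-voom 6 and no count filter 4. For that between germ-free and antibiotics, they called 5, 15 and 2, and the GC and length correction 1. Apart from the main fit and library totals, shares of all genes called are not given here, also for the fits without 1 library.

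Leaving out 1 library gave 12 to 29 calls for zinc after antibiotics, 0 to 12 for zinc in germ-free mice and 2 to 23 for antibiotics against SPF on zinc water. It gave 7 to 19 and 0 to 4 for germ-free against SPF on Milli-Q and zinc water, 3 to 17 and 4 to 9 for germ-free against antibiotics, and 0 to 9 for the difference of zinc effects between germ-free and antibiotics (9 without germ-free Milli-Q replicate 1, 8 without germ-free zinc replicate 4 and 1 without antibiotics Milli-Q replicate 1). Summed levels without 1 library were 2139 to 2354 and 2064 to 2177 CPM in SPF mice, 2194 to 2293 and 2754 to 2954 after antibiotics, and 2554 to 2860 and 2417 to 2495 in germ-free mice.

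Replicate numbers of the sample titles showed no pairing of the samples. Correlations of same-numbered libraries ran from -0.17 to 0.23 and not every pair exceeded 0.1 in any comparison. In the germ-free Milli-Q group the titles and the count columns number the libraries differently. Pairing by the column numbers was not tested, and the replicate block also used the title numbers. With a replicate block, 26 members were called for zinc after antibiotics, 6 for zinc in germ-free mice, 16 for antibiotics against SPF on zinc water, 16 and 2 for germ-free against SPF, and 13 and 8 for germ-free against antibiotics. In no comparison did every library correlate best with its own number.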
